A study of Rattus norvegicus with 16 samples.

Results

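Complement and microglial marker genes, 10 in all, were followed across the rat hypothalamus after restraint, after inhaled linalool and after both together. They are C1qa, C1qb, C1qc, C3, Tyrobp, Csf1r, Itgam, Ptprc, Aif1 and Tmem119, and their probe sets were taken where the platform annotation gave exactly 1 of these symbols. All 10 were found, among 14217 named genes, on 12 of 31042 probe sets, with Ptprc and Aif1 having 2 probe sets each. Male Wistar rats aged 7 to 8 weeks were used throughout, with 4 Affymetrix arrays per group, each taken as 1 rat. Control rats had neither restraint nor odour. A second group was kept in restraint for 2 h, a further group breathed (R)-(-)-linalool over the same length of time, and in the last group restraint and odour were combined for 2 h. Linalool is a floral-smelling monoterpene alcohol. The layout asks what restraint does, what the odour does, and whether the odour alters the response to restraint. The whole hypothalamus was measured, so that fewer cells of a type and less RNA per cell cannot be told apart.

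Microglia are the resident macrophages of the brain and its main source of C1q, the recognition molecule that starts the classical complement pathway. C1q is built from A, B and C chains, each with its own gene. Once the pathway is started, C3 is cleaved, and its fragments tag material for uptake through the receptor CR3, of which Itgam (CD11b) is the alpha chain. Tyrobp (DAP12) passes on signals from receptors such as TREM2, Csf1r is the receptor for the survival factors CSF1 and IL-34, Ptprc (CD45) is a tyrosine phosphatase of all white blood cells, Aif1 encodes the calcium-binding protein Iba1, and Tmem119 is a membrane protein used to tell microglia from other macrophages.

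C1qb varied closely with C1qc from rat to rat and, by Pearson's r, with C1qa, so the stretches before the starts of C1qa and C1qb are shown, with C3 for contrast as the complement member lying elsewhere. In the RefSeq gene table for GRCr8, C1qb, C1qc and C1qa are consecutive genes. The promoter table held entries for 6 of the 10 genes, and C1qc was not among them. Each sequence gives the 250 bases upstream of the RefSeq start on GRCr8, 5′ to 3′ on the minus strand, which is the gene's strand. C1qa lies at chr5:154419934-154420183, C1qb at chr5:154407828-154408077 and C3 at chr9:2201340-2201589. Capitals mark matches to short motifs searched on both strands.
C1qa: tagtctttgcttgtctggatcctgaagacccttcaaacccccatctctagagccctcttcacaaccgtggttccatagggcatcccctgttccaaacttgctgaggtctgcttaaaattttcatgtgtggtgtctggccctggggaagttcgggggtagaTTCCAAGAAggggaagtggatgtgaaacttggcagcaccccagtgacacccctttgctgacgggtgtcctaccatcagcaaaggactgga
C1qb: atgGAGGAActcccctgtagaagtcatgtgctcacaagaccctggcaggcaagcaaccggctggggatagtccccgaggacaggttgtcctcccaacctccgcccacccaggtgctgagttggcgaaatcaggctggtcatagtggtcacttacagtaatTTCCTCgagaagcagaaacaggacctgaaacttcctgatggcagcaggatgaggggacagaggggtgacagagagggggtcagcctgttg
C3: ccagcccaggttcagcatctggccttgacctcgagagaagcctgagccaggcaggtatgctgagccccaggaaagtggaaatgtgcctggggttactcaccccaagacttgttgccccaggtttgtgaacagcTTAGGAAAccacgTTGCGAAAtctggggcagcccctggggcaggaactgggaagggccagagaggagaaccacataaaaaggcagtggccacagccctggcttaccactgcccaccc
The motifs were GAGGAA, a core of sites for the myeloid factor PU.1, TTNNGNAA for C/EBP factors, and TTCNNNGAA for STAT factors. GAGGAA or its reverse stood in 23.3% of the 33469 promoters of this length, TTNNGNAA in 37.2% and TTCNNNGAA in 7.67%. An NF-kappaB motif was the last of the 4 searched, stood in 1.3% of promoters and matched in none of the 6 members' stretches. The C1qb stretch held 2 matches to the PU.1 letters, the C1qa stretch 1 match to the STAT letters, and the C3 stretch 2 matches to the C/EBP letters. The stretches of Csf1r, Itgam and Ptprc, not shown, held 2, 2 and 1 matches to the PU.1 letters. They also held 1, 2 and 2 matches to the C/EBP letters, and Itgam 1 to the STAT letters. A match is a description of letters, not of a bound factor.

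Array quality differed within and between groups. Median deposited signals lay between 67.03 and 127.4 per array and were brought to a common distribution, so levels below are normalized signals and changes are log2 differences of signal + 16. The BioC spike-in, a hybridization control, read 793 to 898.2 in linalool rats 2 and 4 and in rat 2 of the group given both, and 208.4 to 254.8 on the remaining 13 arrays. All 3 arrays with a high BioC signal came from rats that breathed linalool, so BioC level and odour cannot be fully told apart. No label gives a reason. Control rats 1 and 2 deviated most from their group mean over all probe sets (SD 0.276 and 0.255, against 0.146 to 0.213 elsewhere), and the 3'-to-5' ratio of beta-actin, a sign of RNA quality, was 2.08 to 4.93, highest in control rat 1. Restraint with linalool rat 2 stood apart in the C1q genes, which was noticed after the values were seen, and results that rest on it are given with and without it. Markers of neurons, astrocytes, oligodendrocytes and the hypothalamus were detected in all groups (14 of 19 hypothalamic markers passed the filter), and so were those of microglia (11 of 15). Pituitary markers (3 of 7 past the filter) were uneven. They summed to 266 in control rat 3, up to 6954 in the other controls, and 2404 to 7099 in the treated groups.

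Of the 12 probe sets, 10 passed the filter on dim signals, 1 for each gene. The second Ptprc and Aif1 probe sets lay below it. In limma's fit over 18625 probe sets, 0 of the 10 passed an adjusted p of 0.05 in any of the 8 comparisons. At an unadjusted p under 0.05 with restraint against control, 2 of the 10 passed, where 12.6% of all probe sets did and 0.902% passed after adjustment. With linalool against control it was 3 of the 10, against 9.83% of all probe sets, and 0% passed after adjustment. With both against restraint it was 4, against 12.6% unadjusted and 0.65% adjusted, and with both against linalool it was 3, against 16.2% unadjusted and 1.69% adjusted. With both against control it was 2, against 18.8% unadjusted and 4.02% adjusted. Restraint averaged over both odour conditions gave 2 against 18.9% unadjusted and 4.21% adjusted, and linalool averaged over both restraint conditions gave 4 against 14.8% unadjusted and 0.714% adjusted. The interaction, which is the difference between the linalool effects with and without restraint, gave 4 against 7.99% unadjusted and 0% adjusted. These comparisons share groups, so their counts are not independent.

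**Figure D1:**
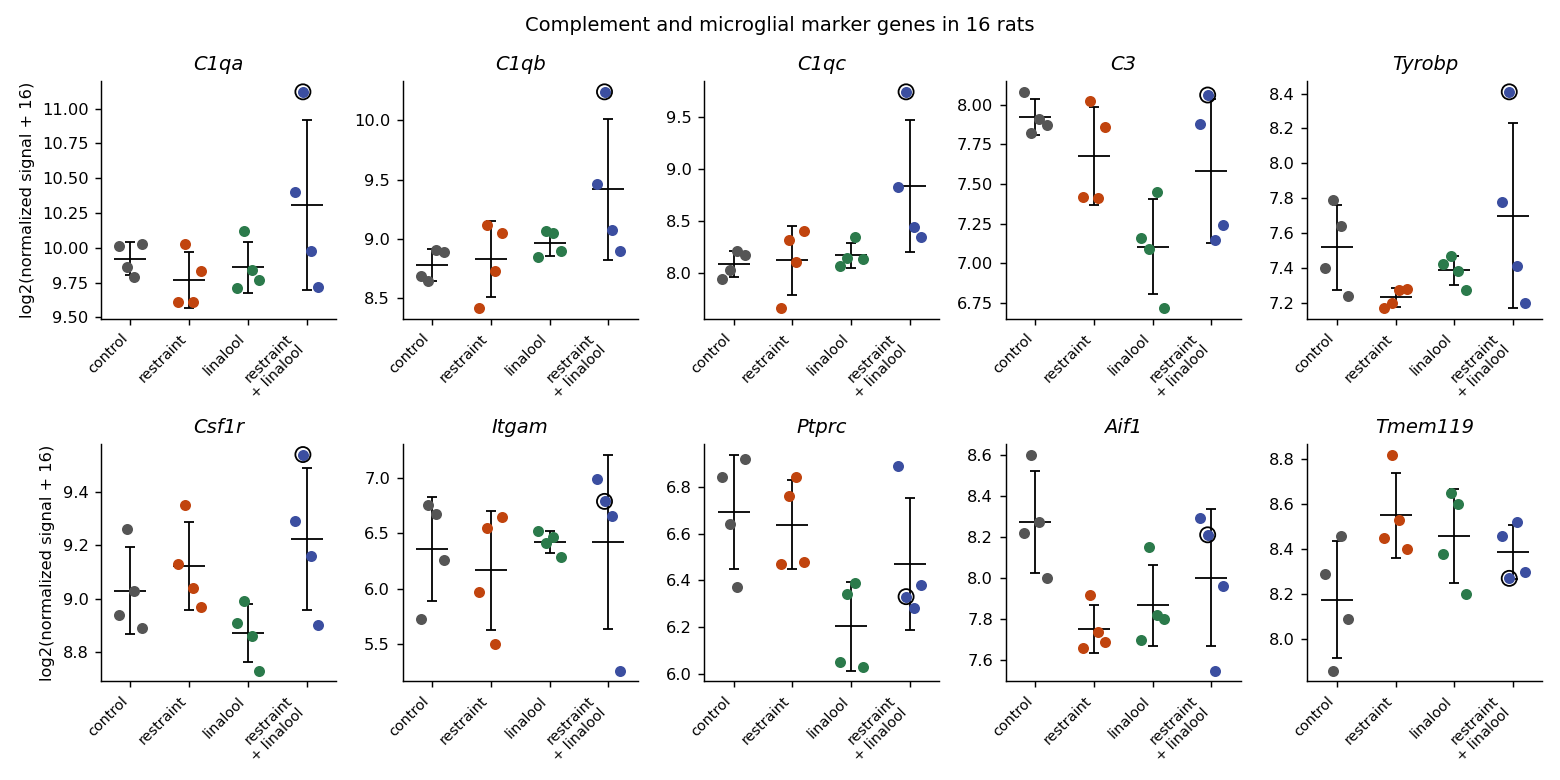
Each panel shows 1 gene, with log2(normalized signal + 16) on the vertical axis and the 4 groups on the horizontal axis. Points are rats, the black mark and bar are the mean and SD over 4 rats, and the ring marks restraint with linalool rat 2. That rat is the highest of all 16 for C1qa, C1qb, C1qc, Tyrobp and Csf1r, and the 4 linalool points for C3 lie below the 4 control points.

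The recognition molecule C1q had like levels in the control, restraint and linalool groups and its highest single values with both treatments. C1qa, the A chain, read 1015, 912, 869 and 1027 in control rats 1 to 4, and 764, 1029, 764 and 892 in restrained rats. It read 824, 1095, 901 and 857 with linalool, and 1338, 2203, 992 and 827 with both. The highest 2 values belonged to rats 2 and 1 of the combined group, whose other rats lay within the spread of the remaining groups.

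C1qb, the B chain, read 398, 386, 466 and 459 in controls, and 326, 540, 407 and 514 under restraint. With linalool it read 444, 522, 513 and 463, and with both treatments 689, 1194, 525 and 463. Again rats 2 and 1 of the combined group were the highest, and the groups overlapped. C1qc, the C chain, read 230, 245, 281 and 273 in controls, 187, 302, 258 and 321 under restraint, and 251, 267, 308 and 263 with linalool. It read 434, 842, 332 and 309 with both. Every one of those 4 values exceeded every control and linalool value, by 1 unit of signal in the closest case against linalool, while the restraint range overlapped them. Groups that do not overlap in that direction were seen for 5.05% of all probe sets against control and 5.7% against linalool.

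Linalool given during restraint came with C1qc higher by 0.72 than restraint alone (95% interval 0.23 to 1.21, SE 0.23), with limma's adjusted p = 0.187. The same difference was 0.59 for C1qb (0.12 to 1.06, adjusted p = 0.263) and 0.54 for C1qa (0.08 to 0.99, adjusted p = 0.303). None of the 3 passed the threshold. Against linalool alone, C1qc differed by 0.67 (0.18 to 1.16, adjusted p = 0.17), C1qb by 0.45 (-0.01 to 0.92, adjusted p = 0.323) and C1qa by 0.44 (-0.01 to 0.90, adjusted p = 0.322). Against control, C1qc differed by 0.75 (0.25 to 1.24) with the smallest adjusted p of any member, 0.0859, while C1qb differed by 0.63 (adjusted p = 0.126). C1qa differed by 0.38 (-0.07 to 0.84, adjusted p = 0.364), and by 0.11 without rat 2. The values of C1qc and C1qb rest on which rats are counted. Without rat 4 of the combined group, the lowest, C1qc rose by 0.91 (adjusted p = 0.0409) and C1qb by 0.81 (adjusted p = 0.0495), whereas without rat 2, the highest, they differed by 0.45 (adjusted p = 0.187) and 0.36 (adjusted p = 0.314). In rats given a single treatment, the 3 chains differed from control by -0.15 to 0.18, with intervals between -0.61 and 0.65.

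**Figure D2:**
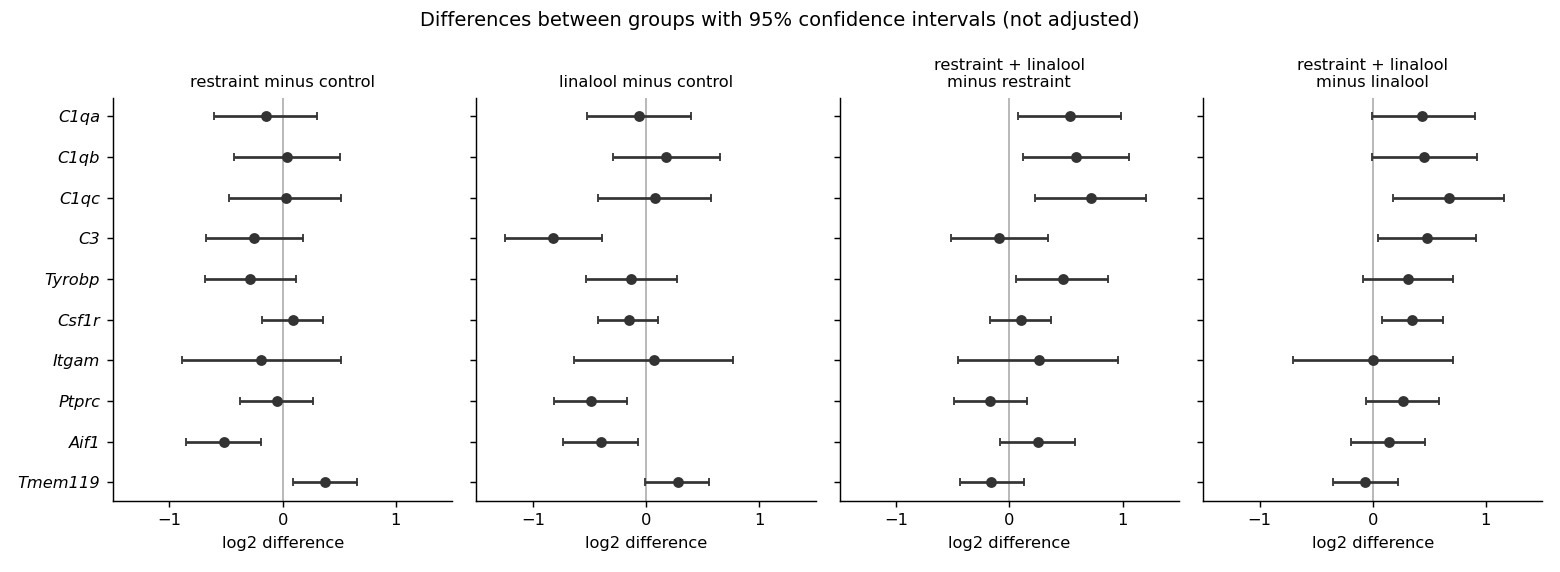
Each panel gives 1 comparison, with the log2 difference on the horizontal axis and the 10 genes on the vertical axis. Points are limma's estimates from 4 rats against 4, and bars are 95% intervals not adjusted for the number of tests. C3 lies at -0.82 with linalool against control, Aif1 at -0.52 with restraint against control, and the C1q chains at 0.54 to 0.72 with both treatments against restraint.

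Rat 2 of the combined group stood apart in these genes. On the log2 scale it exceeded the mean of the other 3 rats of its group by 1.08 for C1qa, 1.09 for C1qb and 1.21 for C1qc, and by 0.94 for Tyrobp. These lie between the 99.8th and 99.9th percentile of all 18625 probe sets in that rat, of which 1.61% were higher by over 0.5. C3 was higher there by 0.64, Itgam by 0.49, Csf1r by 0.42 and Aif1 by 0.27. Ptprc and Tmem119 were not, at -0.18 and -0.16, so the excess did not extend to every microglial gene. Without this rat, the difference between both treatments and restraint was 0.27 for C1qa, 0.32 for C1qb and 0.42 for C1qc (adjusted p = 0.628, 0.569 and 0.397), and that against linalool was 0.17, 0.18 and 0.37.

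Other transcripts stood out in the same rat, chosen here after their values were seen. Lcn2, an iron-binding protein made by neutrophils and by inflamed brain tissue, read 930 against a median of 19.7 over the 16 arrays, and S100a9 and S100a8, neutrophil calcium-binding proteins, read 216 and 84.9 against 24.5 and 18.6. Relative to its 3 group mates, Grifin, a lens protein related to galectins, was higher by 2.85, Plac8 by 2.56, Lrg1 by 1.91, the Fc receptor Fcgr2b by 1.60, ceruloplasmin (Cp) by 1.18, Tspo by 1.16 and the transcription factor Cebpd by 1.07. The 20 genes with the largest excess also held Luzp2 (1.25), Tut1 (1.19), Ptprd (1.15) and Pnpla7 (1.12). The neutrophil list (7 of 11 genes on the array, 0 past the filter, none at 0) summed to 1253 in this rat, to 79.8 to 116 in its group mates, 45.6 to 101 in controls, 131 to 283 under restraint and 60.5 to 106 with linalool. The sum in this rat came almost wholly from Lcn2, S100a9 and S100a8, while Camp, Cxcr2, Mmp8 and Mmp9 were highest in other rats, at 7.38 to 21.7. The microglia list summed to 7517 in this rat, against 5613 to 7102 in its mates and 6108 to 7397 in controls, and 3 of its 11 filtered genes were above all 3 mates. Ctss, the brightest gene of that list, gave 5072 of the 7517. Meningeal and red blood cell markers were lower in this rat, with medians of -1.10 and -1.06. The border macrophage list, whose cells also make C1q, was lower too, with a median of -0.76 and 0 of 3 filtered genes above all mates. Rat 1, second highest for C1q, had the highest border macrophage and meningeal sums of the group, 676 and 21704. The part of these markers in the C1q values was not tested. With the BioC level as a block, both treatments against restraint gave 0.40 for C1qa, 0.47 for C1qb and 0.60 for C1qc. Both against linalool then gave 0.58, 0.58 and 0.79 (adjusted p = 0.103, 0.141 and 0.0655 in limma).

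**Figure D3:**
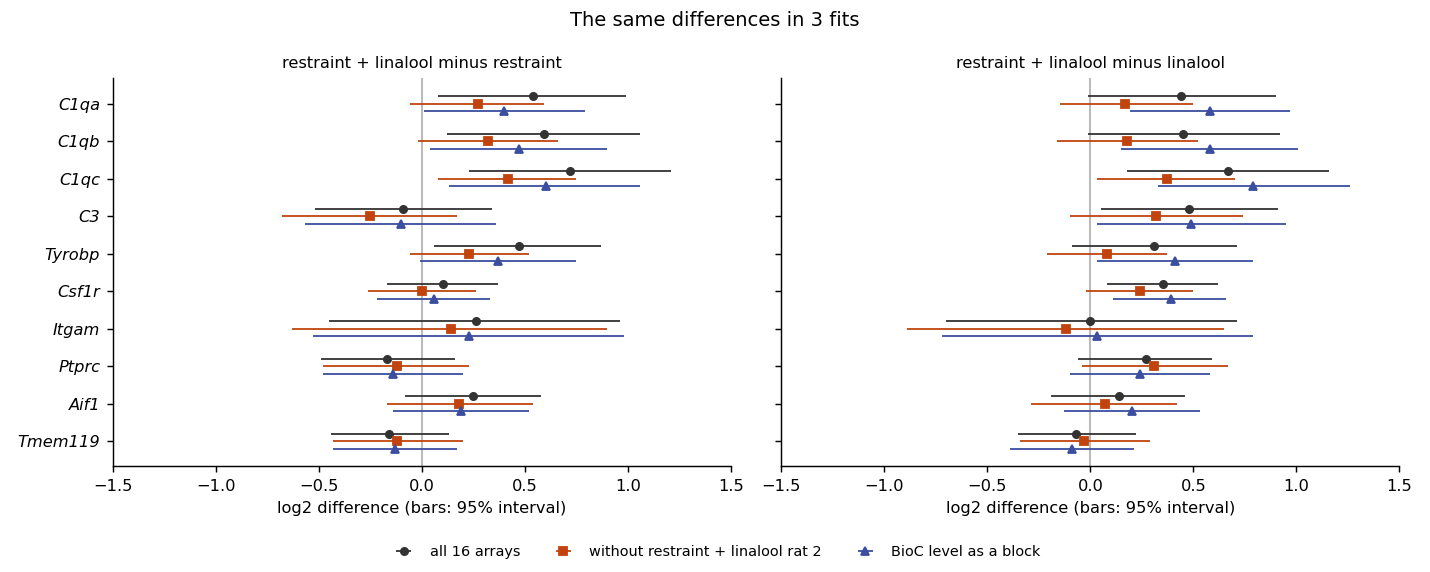
The log2 difference and its 95% interval are plotted for each gene in 3 fits, namely all 16 arrays (circles), without rat 2 of the combined group (squares) and with the BioC level as a block (triangles). The left panel gives both treatments minus restraint and the right panel both minus linalool. Without rat 2 the C1qc value moves from 0.72 to 0.42 on the left and from 0.67 to 0.37 on the right.

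Between rats of the same group, C1qb and C1qc moved together most closely, and C1qa less so. After group means were removed, C1qb and C1qc correlated at Pearson r = 0.98 and Spearman rho = 0.92 over 16 arrays (permutation p = 0.00019 for each, adjusted 0.00855 over the 45 pairs computed). Without the 2 arrays farthest from the median r was 0.94, and within the 13 BioC-low arrays it was 0.97. C1qa and C1qb correlated at 0.92 and rho 0.81 (permutation p = 0.00091 and 0.00398, adjusted 0.0205 and 0.0895), with r = 0.74 without the 2 farthest and 0.84 within the BioC-low arrays. C1qa and C1qc correlated at 0.86 and rho 0.66 (permutation p = 0.00855 and 0.0304, adjusted 0.0641 and 0.158), which did not pass, with r = 0.56 without the 2 farthest and 0.75 within the BioC-low arrays. Tyrobp and Csf1r correlated at 0.80 and rho 0.65 (permutation p = 0.003 and 0.0213, adjusted 0.045 and 0.158), with 0.58 and 0.72 in those subsets. These were the 3 of 45 pairs past an adjusted 0.05 by Pearson's r, and by rank only C1qb with C1qc passed. Tmem119 had r of 0.01 to 0.13 with the chains over 16 arrays and 0.20 to 0.36 without rat 2 of the combined group, and Ptprc had 0.05 to 0.23 and 0.27 to 0.52. The within-group SD of the log2 difference between C1qb and C1qc was 0.06 to 0.09 and that between C1qa and C1qc 0.11 to 0.23, while C1qc itself had SDs of 0.12 to 0.64.

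Deviations of 10309 named genes were compared, and symbols beginning with LOC or RGD were then left out of the ranking. Most like the mean of the 3 chains over 16 arrays were Itgb2 (r = 0.90), Ctsz (0.89), Adamts1 (0.88), Gpr84 (0.87) and RT1-DMa (0.86). Without rat 2 of the combined group these values were 0.86, 0.77, 0.76, 0.80 and 0.80. Itgb2 is the beta chain of CR3 and Ctsz a lysosomal protease. For C3 the most alike under the same rule were RT1-DMa (0.89), Wdr4 (0.85), Ctsz (0.82), Fcgr3a (0.80) and Itgb2 (0.80). All arrays share the same normalization, and the list is a description.

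C3 was lowest with linalool alone. It read 254, 211, 224 and 218 in control rats, and 127, 120, 159 and 89.3 with linalool. All 4 linalool values lay below all 4 control values, a separation seen in this direction for 2.21% of all probe sets. Restrained rats read 155, 243, 154 and 216, and rats with both read 219, 251, 126 and 136, overlapping controls and linalool rats. With linalool against control C3 differed by -0.82 (SE 0.20, 95% interval -1.25 to -0.39), an unadjusted p of 0.000988 in limma and an adjusted p of 0.282. With both against restraint it differed by -0.09 (-0.52 to 0.34, adjusted p = 0.9). Averaged over both restraint conditions the linalool difference was -0.45 (-0.76 to -0.15, adjusted p = 0.155), and the interaction was 0.72 (0.12 to 1.33, adjusted p = 0.576). The linalool rats with a high BioC signal, rats 2 and 4, gave the 2 lowest C3 signals of the 16 arrays. Within the BioC-low arrays the difference with linalool was -0.62 (adjusted p = 0.488), and with BioC as a block -0.84 (adjusted p = 0.391).

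Astrocytes and connective tissue also make C3, and their markers were set beside it. The astrocyte list (9 of 10 genes past the filter, none at 0) summed to 44498 to 46863 in controls and 40613 to 44737 with linalool. The meningeal list (all 10 past the filter) summed to 14325 to 18239 and 13109 to 15993. The part of either in the C3 difference was not tested.

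Among the receptors and signalling proteins, Tyrobp read 153, 205, 184 and 135 in controls, 128, 131, 138 and 140 under restraint, and 155, 161, 151 and 139 with linalool. With both it read 203, 323, 154 and 131. Only rat 2 of the combined group lay far above the rest. Both treatments against restraint gave 0.47 (95% interval 0.06 to 0.87, limma's adjusted p = 0.31), and 0.23 without that rat (adjusted p = 0.643).

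Csf1r read 474, 596, 507 and 458 in controls, and 544, 638, 509 and 484 under restraint. With linalool it read 466, 492, 449 and 409, and with both 612, 727, 557 and 460. The linalool rats had the lowest median of the 4 groups, whose ranges all overlapped. Both treatments against linalool gave 0.35 (0.08 to 0.62, limma's adjusted p = 0.188), and restraint averaged over both odour conditions gave 0.22 (0.03 to 0.41, adjusted p = 0.187). Its ligand genes Csf1 and Il34 gave -0.01 (SE 0.08, adjusted p = 0.971) and 0.02 (SE 0.09, adjusted p = 0.944) for the same average.

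Itgam was dim and the most scattered member, at 37.1, 92.1, 86.3 and 60.5 in controls and 46.9, 77.8, 29.2 and 84.2 under restraint. It read 75.8, 69.2, 72.6 and 62.2 with linalool and 111, 94.7, 85 and 22.4 with both. Low single values occurred in every group but linalool. Its intervals were the widest, such as -0.70 to 0.71 for both treatments against linalool. Itgb2, the partner chain, had group means of 6.90 to 7.16 on the log2 scale and SDs of 0.05 to 0.39 over 4 rats.

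Ptprc read 98.7, 83.6, 66.4 and 105 in controls, and 50.3, 65.3, 68 and 49.2 with linalool. Restrained rats read 72.5, 92.2, 98.8 and 73.3, and those with both 102, 64.7, 61.8 and 67.3. Linalool rats were lower than most controls, but control rat 3 at 66.4 lay inside their range. The difference with linalool was -0.49 (95% interval -0.81 to -0.17, limma's adjusted p = 0.345), and averaged over both restraint conditions -0.33 (-0.56 to -0.10, adjusted p = 0.167). The second Ptprc probe set was near background at 3 to 47.3 and gave -0.22 with linalool when no filter was used (adjusted p = 0.885).

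Aif1 was lower in every restrained rat than in every control. Control rats read 282, 371, 292 and 240, and restrained rats 186, 226, 197 and 190. The lower direction without overlap was seen for 2.57% of all probe sets. Linalool rats read 192, 268, 209 and 208, and rats with both 297, 280, 172 and 233, both overlapping controls. Restraint against control gave -0.52 (SE 0.16, 95% interval -0.85 to -0.19) with limma's adjusted p = 0.15, and both treatments against linalool gave 0.14 (-0.19 to 0.46, adjusted p = 0.724). Without control rats 1 and 2, restraint against control gave -0.38 (-0.77 to 0.00, limma's adjusted p = 0.453). The interaction over all rats was 0.66 (0.19 to 1.12, adjusted p = 0.496). The second Aif1 probe set, below the filter, read 19 to 27.9 in controls and 12.5 to 43.2 under restraint, and gave 0.09 for that comparison with no filter (adjusted p = 0.926). The 2 probe sets therefore differ in sign, and the dim one carries little signal. The second set did not overlap between controls and both treatments (33.2 to 48 with both), the higher direction seen for 5.05% of probe sets past the filter.

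Cell marker sums for restraint without odour were set beside Aif1. Perivascular and other border macrophages also express Aif1. Of their list, 7 of 8 genes were on the array and 3 passed the filter, with none at 0. It summed to 360 to 409 in controls and 479 to 702 under restraint. The red blood cell list summed to 2938 to 5880 and 5383 to 10022. The microglia list summed to 6108 to 7397 and 5326 to 7035. Their part in the Aif1 difference was not tested.

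Tmem119 read 297, 216, 336 and 257 in controls, and 333, 435, 354 and 321 under restraint. With linalool it read 318, 385, 371 and 277, and with both 337, 293, 352 and 300. Restrained rats were mostly above controls, but control rat 3 lay within their range. Restraint gave 0.37 (95% interval 0.09 to 0.66, limma's adjusted p = 0.246), linalool 0.28 (-0.01 to 0.56, adjusted p = 0.518) and both against restraint -0.16 (-0.44 to 0.13, adjusted p = 0.676). The interaction was -0.44 (SE 0.19, adjusted p = 0.611).

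Set beside the members, a wider list of 53 microglial and myeloid genes held several that fell with restraint. Of its 37 genes past the filter, 5 fell and 0 rose with restraint against control, where 0.274% of all probe sets fell, and 8 fell and 0 rose with restraint averaged over odour conditions, where 1.56% of all probe sets fell. The list's median change was -0.13 and -0.01 in these comparisons, beside 0.00 and -0.01 over all probe sets. Earlier results of these data were known when the list was chosen, which makes this no independent evidence of its direction. P2ry12, a purine receptor of microglia, read 505 to 636 in controls and 269 to 338 under restraint, and fell by 0.95 (SE 0.18, limma's adjusted p = 0.0172). Gpr34, which senses a lysophospholipid, fell by 1.27 with an SE of 0.23 (adjusted p = 0.0145), and Bin2, Plek and Cd33 fell by 1.02, 0.96 and 0.86 (adjusted p = 0.00807, 0.012 and 0.0121). For all 5 of these called genes the control and restraint groups did not overlap, a separation seen in this direction for 2.57% of all probe sets. Cx3cr1, the fractalkine receptor, fell on average over odour conditions by 0.49 (SE 0.09, adjusted p = 0.00603), and gave -0.29 with restraint alone (adjusted p = 0.364).

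The number of these calls moved with scaling and with the control rats, and so did the number over all probe sets. With restraint against control, calls over all probe sets numbered 168 in the main setting. They ran from 42 to 259 across the alternatives other than leaving out 1 rat. For the average effect they numbered 784, and 457 to 1035 across those alternatives. With the values as deposited, where restraint against control shifts the median probe set by 0.10, 2 of the 37 fell with restraint against control, and for the average effect, where the shift is 0.21, 5 fell and 1 rose. With arrays scaled to a common trimmed mean, 5 and 8 fell. Without control rats 1 and 2, 0 of the 37 passed with restraint against control, and 7 fell in the average. The list's median was then -0.15 for restraint against control, beside -0.13 with all rats, and P2ry12 gave -0.98 (SE 0.22, adjusted p = 0.107) and Gpr34 -1.05 (SE 0.28, adjusted p = 0.167). Without rat 2 of the combined group, 5 and 7 fell. Within the BioC-low arrays, 5 and 6 of 38 fell.

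**Figure D4:**
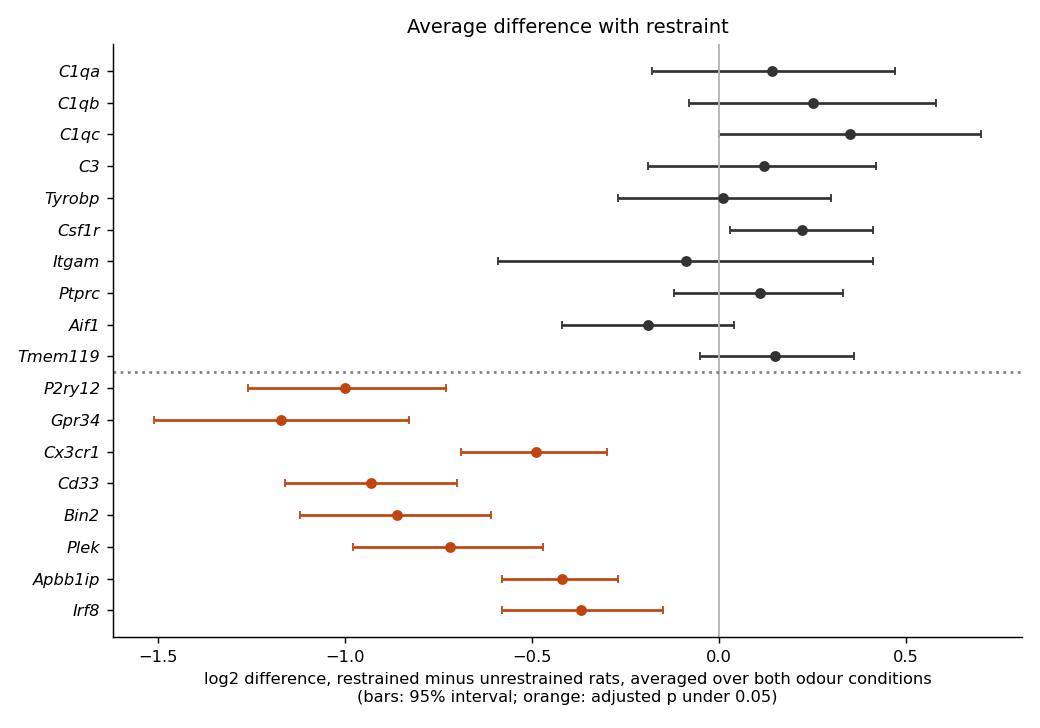
The horizontal axis is the log2 difference between the 8 restrained and the 8 unrestrained rats, averaged over both odour conditions, with 95% intervals. Above the dotted line are the 10 members, none of which passed an adjusted p of 0.05, and below it are genes of the wider lists that fell, shown because they fell. Orange marks an adjusted p under 0.05. Csf1r lies at 0.22 and Tmem119 at 0.15, while Cd33 lies at -0.93 and Gpr34 at -1.17.

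The other complement genes were set beside the members. Of 43 listed, 32 were on the platform and 16 passed the filter. Over all probe sets, 4.02% were called with both treatments against control and 0% to 4.21% in the other comparisons. In the 8 comparisons together, 1 call was made, Calr (calreticulin, a chaperone that also binds C1q), which rose by 0.38 with both treatments against control (SE 0.10, adjusted p = 0.0495, limma), and gave 0.36 with an adjusted p of 0.0666 under trimmed-mean scaling and 0.35 with 0.142 without rat 2. The C1 proteases C1s and C1r had log2 group means of 8.16 to 8.36 and 7.46 to 7.55, with SDs of 0.10 to 0.44 and 0.33 to 0.49 over 4 rats. Gfap, the astrocyte filament gene, gave 0.18 for restraint on average (SE 0.07, adjusted p = 0.143). C3ar1 and Trem2 lay below the filter.

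Among 20 ligands and signalling partners, 11 passed the filter. Cebpb, a transcription factor of the C/EBP family, rose by 1.34 with both treatments against linalool (SE 0.27, limma's adjusted p = 0.021), by 1.30 against control (adjusted p = 0.016) and by 0.91 for restraint on average (SE 0.19, adjusted p = 0.0145). Its signals were 140 to 398 with both treatments and 66.5 to 98.6 in controls. Without rat 2 of the combined group the first value was 1.09 (adjusted p = 0.0709), the second 1.05 (adjusted p = 0.0583) and the average 0.79 (adjusted p = 0.0253). Within the BioC-low arrays these were 0.98, 1.06 and 0.73, with adjusted p of 0.192, 0.086 and 0.0792. Irf8, a myeloid transcription factor, fell by 0.37 for restraint on average (adjusted p = 0.0496), and gave -0.15 (adjusted p = 0.456) with the values as deposited and -0.37 (adjusted p = 0.0703) with trimmed-mean scaling.

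Linalool on its own gave 0 calls over all 18625 probe sets in limma, with 1831 at an unadjusted p under 0.05. Of the members, C3, Ptprc and Aif1 were the 3 with an unadjusted p under 0.05, all lower, where 4.5% of all probe sets were lower at that level. Across the 10 members, the median change with linalool was -0.10, beside 0.00 for all probe sets. With both treatments against linalool the median was 0.33 beside -0.02, and with both against restraint 0.26 beside -0.02. The first and second of these 3 medians share the linalool rats, and the last 2 share the rats given both, including rat 2.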

How the data were processed

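The authors deposited a table of signal intensity for 31099 probe sets on 16 arrays. MAS5 is named for it per the submitters' processing notes. What level MAS5 scaled to was not given in the sources used here. Levels differed between arrays, so the values were quantile-normalized on the log2 scale with limma 3.58.1 in R 4.3.3. The 57 control probe sets were then left out, 16 was added and log2 taken. Probe sets with a mean at or above the 40th percentile were kept, 18625 of 31042. Adding 16 understates the change of dim genes, and quantile normalization hides a change shared by most transcripts. The platform annotation gave 1 gene symbol for 20826 of them before the filter, more than 1 for 436, and none for 9780.

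One group-means model over 16 arrays was fitted with limma (lmFit and eBayes, two-sided, residual degrees of freedom 12, prior 3.97). P-values were Benjamini-Hochberg adjusted over all kept probe sets. The titles number the arrays within each group, and each array was taken as a separate rat. On that reading p-values measure the spread between rats, and their precision is limited by the number of arrays. Correlations were computed with numpy 2.4.6 and scipy 1.17.1, with permutations within groups. The fit was also run on simulated data with independent normal noise for each probe set. Those data held no outlying array and no BioC difference, so the run cannot speak to either. All member probe sets were named. For each wider list and comparison, up to 6 called genes by smallest p were eligible, together with a fixed set of complement and microglial genes. Members and lists were chosen with earlier results of these data known. Alternatives covered scaling, pseudocount, filter, replicate number, BioC level, actin ratio and left-out rats.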

Additional observations from a re-analysis of the deposited data

Results flagged for a closer look

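Within groups, 48 sets of 4 values were examined for a single rat far from the others, and 2 were found, where chance gives about 5%. Ptprc on its brighter probe set read 6.89 on the log2 scale in restraint with linalool rat 1, while the other 3 rats of that group read 6.28 to 6.38. On its dimmer probe set, below the filter, Ptprc read 4.25 in restraint with linalool rat 3, while the others read 5.13 to 5.29. Rat 2 of that group, the highest for the C1q genes, was not flagged by this rule for any member.

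For Tmem119, every linalool rat lay above the control mean and every rat with both treatments lay below the restraint mean. The mean differences were 0.28 and -0.16, and their gap was -0.44. The sorting by direction was itself not tested. limma's interaction for the same gap had an SE of 0.19 and an adjusted p of 0.611.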

How the results depend on the processing

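The count of members past the threshold was 0 in the main setting of all 8 comparisons. It stayed at 0 under every alternative for restraint against control, linalool against control, both against restraint, average linalool and the interaction. With the values as deposited it was 5 for both against linalool (C1qa, C1qb, C1qc, C3 and Csf1r), 1 for both against control (C1qc) and 1 for average restraint (C1qc), in comparisons whose median over all probe sets shifted by 0.32, 0.16 and 0.21. For both against control it was 0 to 2 as each rat was left out, with 2 without rat 4 of the combined group. With the replicate block it was 1 for both against linalool and 1 for average restraint, in each case Csf1r (adjusted p = 0.0461 and 0.0467), and it changed no other call. The labels link same-numbered rats by number only. Over all probe sets past the filter, the deviations of 4 of 24 same-numbered pairs correlated above 0.1 (range -0.16 to 0.23). Whether such rats shared a day or a run was not tested. The cause of these changes in the count of members was not tested. For the 26 combinations of a member and a comparison that had an unadjusted p under 0.05 or were called in some setting, the alternatives gave 577 values with the same call, 11 that newly passed and 0 that turned direction. Smaller differences did turn, such as C1qb and C1qc with linalool against control (0.18 and 0.08, but -0.07 and -0.16 with BioC as a block) and Tyrobp with both against control (0.18, but -0.06 without rat 2). Over all probe sets, the calls numbered 314 for both against linalool (209 higher) and 1103 as deposited (1096 higher), 748 for both against control (457 higher) and 311 as deposited (293 higher), and 784 for average restraint (493 higher) and 1035 as deposited (1016 higher). Within the BioC-low arrays they were 74, 215 and 457. Across the alternatives that kept all groups or left out several rats, calls ran from 42 to 259 for restraint against control (168 in the main setting), 0 to 386 for both against restraint (121) and 0 to 327 for average linalool (133, and 1 with BioC as a block). Leaving out control rats 1 and 2 was chosen after seeing the data and gave 0 members in each comparison.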
